A study of Mus musculus with 9 samples.

Results

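The 26 genes described here make cholesterol or control how much of it a cell makes: 19 enzymes that lead from acetyl-CoA to cholesterol, 5 genes of the sterol-sensing SREBP system, a sterol carrier and a cholesterol-esterifying enzyme. They lie on 15 chromosomes. They were taken by name from a given list, and all 26 were found among the 55453 gene symbols of the count files and all 26 passed the filter on low counts that left 19166 genes to test. The libraries are bulk RNA-seq of whole pancreas from mouse embryos at e18.5 (days of embryonic development), on a mixed C57BL6 background. The 3 groups are Pdx1:Cre;Grg3Grg4, Pdx1:Cre;Grg3 and Pdx1:Cre, the last being the control, with 3 libraries each. Every group, the control included, carries Pdx1:Cre, in which *Pdx1*, a transcription factor gene of the pancreatic epithelium, lends its promoter to the recombinase, which the mesenchyme, vessels and nerves of the organ do not use. Grg3 and Grg4 are the Groucho corepressors whose genes are listed as *Tle3* and *Tle4*; the labels name these genes but not the allele, and the series title calls the embryos pancreas-specific Groucho mutants.

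Cholesterol synthesis runs from acetyl-CoA through mevalonate and farnesyl pyrophosphate to squalene, lanosterol and finally cholesterol, and a side branch gives the isoprenoids that anchor proteins to membranes. SREBP transcription factors are made as membrane proteins and are carried by SCAP to the Golgi for cleavage when sterols are scarce; INSIG proteins hold SCAP back when sterols are plentiful. In the nucleus, SREBP switches on the genes of the pathway together, usually with the cofactors NF-Y and Sp1. Acinar cells, which fill most of the exocrine pancreas, keep a large endoplasmic reticulum and secretory membrane system.

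Promoter sequence was read for the genes on which the values turn most, to show the kind of motif these cofactors and SREBP bind. Stretches of 200 bases that end 50 bases before the RefSeq start of the gene, on GRCm38.p6, are printed 5′ to 3′ on the strand of the gene. Capitals mark the sterol regulatory element core TCACNCCAC, the E-box CACGTG and the NF-Y box CCAAT, each on either strand, so that CCAAT also appears as ATTGG. *Hmgcs1* is shown because it alone of the genes matched held the sterol element core, *Insig1* and *Sc5d* because they had 2 of the largest differences, and *Nsdhl* and *Ggps1* because no pair of groups overlapped in them. The stretches lie at chr13:119690101-119690300 (plus strand), chr5:28071162-28071361 (plus strand), chr9:42264351-42264550 (minus strand), chrX:72918271-72918470 (plus strand) and chr13:14063539-14063738 (minus strand).
Hmgcs1: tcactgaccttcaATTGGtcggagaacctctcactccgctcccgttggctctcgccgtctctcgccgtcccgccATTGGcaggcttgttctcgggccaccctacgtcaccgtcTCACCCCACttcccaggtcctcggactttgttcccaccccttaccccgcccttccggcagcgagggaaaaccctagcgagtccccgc
Insig1: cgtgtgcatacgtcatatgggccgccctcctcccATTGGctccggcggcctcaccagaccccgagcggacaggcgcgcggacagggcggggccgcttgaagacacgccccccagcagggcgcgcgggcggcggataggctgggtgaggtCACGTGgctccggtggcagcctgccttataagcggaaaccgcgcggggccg
Sc5d: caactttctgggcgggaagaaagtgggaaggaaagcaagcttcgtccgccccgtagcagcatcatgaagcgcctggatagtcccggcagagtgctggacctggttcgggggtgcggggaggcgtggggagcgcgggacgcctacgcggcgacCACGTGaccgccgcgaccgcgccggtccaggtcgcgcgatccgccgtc
Nsdhl: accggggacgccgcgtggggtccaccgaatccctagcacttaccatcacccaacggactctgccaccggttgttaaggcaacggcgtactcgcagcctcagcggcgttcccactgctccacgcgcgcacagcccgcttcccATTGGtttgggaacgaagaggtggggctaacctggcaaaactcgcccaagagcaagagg
Ggps1: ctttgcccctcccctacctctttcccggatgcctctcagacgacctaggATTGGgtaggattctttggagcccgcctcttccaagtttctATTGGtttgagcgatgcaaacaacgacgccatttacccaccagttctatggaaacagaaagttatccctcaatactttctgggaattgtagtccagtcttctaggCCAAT

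In the printed stretch of *Hmgcs1* the sterol element core starts 137 bases before the start site, downstream of NF-Y boxes at 237 and 176 bases. Within the other printed stretches, *Insig1* has an E-box at 101 bases and an NF-Y box at 216 bases, and *Sc5d* has an E-box at 98 bases. *Nsdhl* has an NF-Y box at 109 bases there, and *Ggps1* has NF-Y boxes at 201, 160 and 55 bases. RefSeq windows of 300 bases, from 250 before to 50 after the start, were found for 22 of the 26 genes, with 30 windows in all. Over these longer windows *Hmgcs1* and *Nsdhl* each held 4 NF-Y boxes and *Sc5d* held 1. The NF-Y box was in 20 of these 22 genes (90.9%), against 42.2% of the tested genes with a window, and *Acat2* and *Scap* were the 2 genes without it. The GC box GGGCGG, which Sp1 binds, was in 20 of 22 (90.9%), against 63.6% of tested genes. The E-box was in 5 of 22 (22.7%, *Dhcr7*, *Hsd17b7*, *Insig1*, *Sc5d* and *Scap*), against 10.8%, and the sterol element core was in 1 of 22 (4.55%), against 1.45%. Motifs were counted on both strands, and none of the 4 contains another. These matches describe letters in a short window and were not tested as binding sites.

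Before the sterol genes are compared, several facts about the libraries bear on them. Gene counts summed to 46817453 to 62744499 per library. *Tle3* ran from 126.4 to 146 CPM in Grg3Grg4-labelled libraries and from 145 to 167 CPM in Grg3-labelled libraries, above the 63.1 to 67.7 CPM of controls. *Tle3* was higher in both, with edgeR adjusted p of 0.000557 and 0.00027. *Tle4* ran from 8.63 to 15.5 CPM in Grg3Grg4-labelled, from 9.83 to 13.8 CPM in Grg3-labelled and from 7.68 to 7.85 CPM in control libraries. Both targeted genes were thus not lower in the libraries that carry their names, as whole-gene counts show them, and the libraries are called by their labels throughout. Counts per whole gene include any transcript left by an altered allele. Summed liver markers were 549, 775 and 1716 CPM in Grg3Grg4-labelled libraries and 1472, 85.2 and 469 CPM in Grg3-labelled libraries, against 7.35 to 15.3 CPM in controls. None of the 11 liver markers was at 0 throughout a group. Embryo sex, read from *Xist* and *Ddx3y*, was male in all 3 Grg3Grg4-labelled libraries, in 1 of 3 Grg3-labelled libraries and in 1 of 3 controls. In bulk tissue, fewer cells of a type and less RNA per cell cannot be told apart.

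Most of the 26 genes stood lower in the Grg-labelled libraries than in controls, but by amounts that passed the test for a single gene only. *Tm7sf2*, a reductase of the sterol nucleus, fell in Grg3-labelled libraries and in the 6 Grg-labelled libraries as 1 set. Fitted log2 differences were below 0 for 22 of 26 genes in Grg3Grg4-labelled libraries against controls and for 23 of 26 in Grg3-labelled libraries against controls, where 9226 and 9097 of the 19166 genes tested were below 0. The median difference over the 26 genes was -0.17 in Grg3Grg4-labelled and -0.30 in Grg3-labelled libraries, against 0.01 and 0.02 over all genes. These comparisons share the same 3 controls. With embryo sex as a term in the fit, 14 of the 26 genes were below 0 in the all-male Grg3Grg4-labelled libraries, with a median of -0.04. In Grg3-labelled libraries 23 of 26 were, with a median of -0.31. Of all genes tested, 46.5% and 47.6% were below 0 in these 2 comparisons with the sex term. The direction in Grg3Grg4-labelled libraries turned for 10 genes, namely *Hmgcs1*, *Mvk*, *Mvd*, *Fdps*, *Sqle*, *Lss*, *Hsd17b7*, *Srebf1*, *Insig2* and *Stard4*. The sex term rests on the Grg3-labelled and control groups only, with 1 male and 2 female libraries in each. Grg3-labelled replicate 3, which stood above the rest of its group in most of the 26 genes, is among those females.

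**Figure D1:**
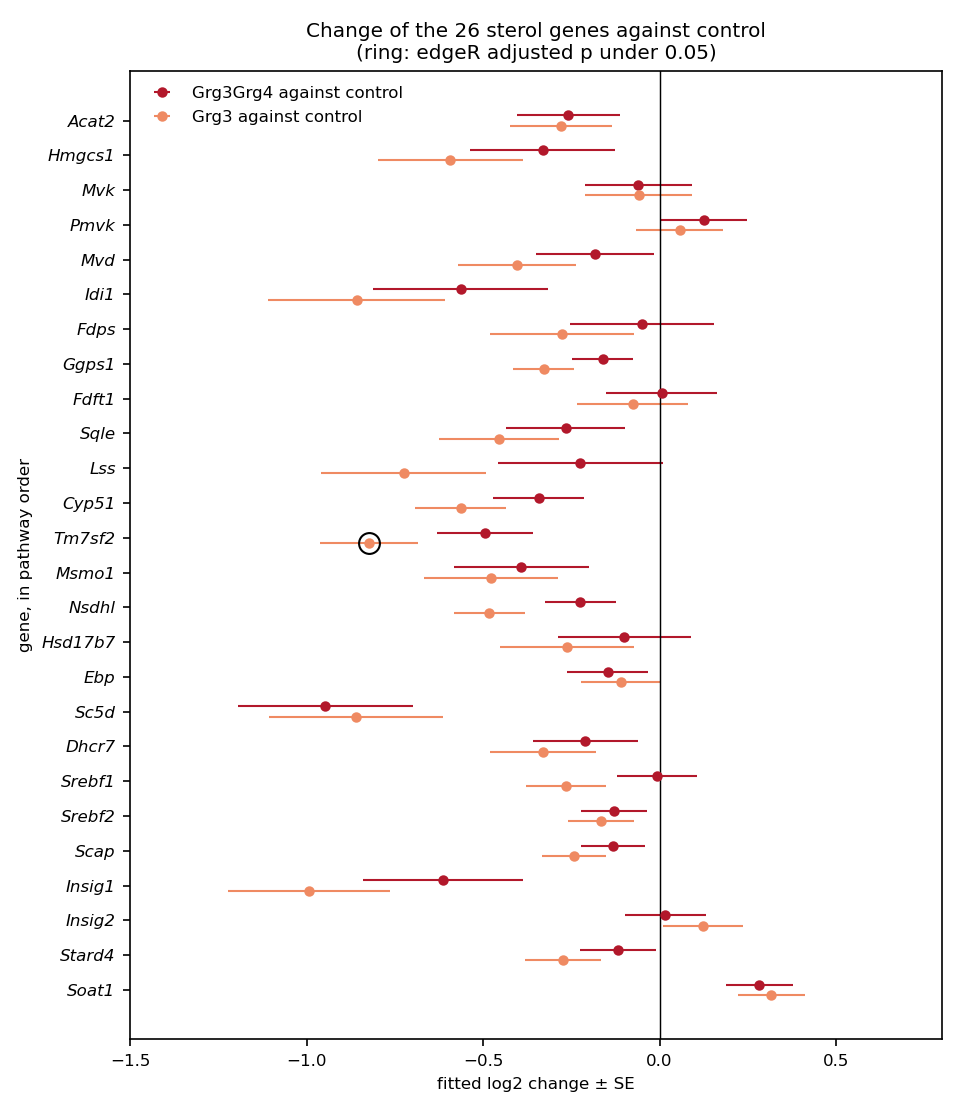
Fitted log2 difference from control, with its SE, for each of the 26 genes in pathway order, for Grg3Grg4-labelled (upper, dark red) and Grg3-labelled (lower, orange) libraries; a ring marks an edgeR adjusted p under 0.05. Only the Grg3-labelled value of *Tm7sf2* is ringed, most points lie left of 0, and both points of *Soat1* lie right of it.

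The first steps join acetyl-CoA units into HMG-CoA. *Acat2*, the cytosolic thiolase, stood at 30.8, 33.8 and 27.3 CPM in Grg3Grg4-labelled libraries, 28.2, 29.0 and 33.5 CPM in Grg3-labelled libraries and 30.3, 45.1 and 34.5 CPM in controls. *Hmgcs1*, the HMG-CoA synthase, stood at 159.7, 196 and 165 CPM in Grg3Grg4-labelled libraries, 102, 142 and 191 CPM in Grg3-labelled libraries and 189, 258 and 209 CPM in controls. For both genes the highest library was control replicate 2, and for *Hmgcs1* the lowest was Grg3-labelled replicate 1, yet the groups overlapped. The log2 difference of *Hmgcs1* was -0.33 ± 0.205 (SE; edgeR adjusted p = 0.402) in Grg3Grg4-labelled libraries against controls. In Grg3-labelled libraries it was -0.59 ± 0.205 (SE; edgeR adjusted p = 0.159). *Acat2* differed by -0.26 and -0.28 on the log2 scale in Grg3Grg4-labelled and Grg3-labelled libraries, with edgeR adjusted p of 0.354 and 0.329. No gene of this step passed the test.

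The next 6 enzymes carry mevalonate to the isoprenoid pyrophosphates. *Idi1*, the isomerase of isopentenyl pyrophosphate, stood at 27.5, 23.3 and 22.3 CPM in Grg3Grg4-labelled libraries, 15.2, 14.7 and 29.7 CPM in Grg3-labelled libraries and 29.4, 38.7 and 39.9 CPM in controls. Its Grg3Grg4-labelled libraries all lay below the controls, and of the Grg3-labelled libraries only replicate 3 reached the lowest control. The log2 difference was -0.56 ± 0.248 (SE; edgeR adjusted p = 0.241) in Grg3Grg4-labelled and -0.86 ± 0.250 (SE; edgeR adjusted p = 0.111) in Grg3-labelled libraries. *Ggps1*, which makes geranylgeranyl pyrophosphate for protein prenylation, stood at 19.1, 19.8 and 19.1 CPM in Grg3Grg4-labelled libraries, 18.4, 17.5 and 15.8 CPM in Grg3-labelled libraries and 21.7, 22.04 and 21.1 CPM in controls. All 6 Grg-labelled libraries of *Ggps1* lay below every control, and the 3 Grg3Grg4-labelled libraries lay above the 3 Grg3-labelled ones. Its log2 difference from controls was -0.16 ± 0.0870 (SE; edgeR adjusted p = 0.335) in Grg3Grg4-labelled and -0.33 ± 0.0871 (SE; edgeR adjusted p = 0.0932) in Grg3-labelled libraries.

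None of the other 4 enzymes of this stretch passed the test. *Mvd*, the decarboxylase that yields isopentenyl pyrophosphate, stood at 38.1, 46.3 and 46.0 CPM in Grg3Grg4-labelled libraries, 28.1, 36.5 and 47.3 CPM in Grg3-labelled libraries and 46.7, 54.9 and 46.5 CPM in controls. Its Grg3Grg4-labelled libraries lay under the lowest control, replicates 2 and 3 narrowly, and its Grg3-labelled libraries overlapped the controls. *Mvk*, mevalonate kinase, averaged 28.6 ± 2.03 CPM in Grg3Grg4-labelled, 28.6 ± 6.48 CPM in Grg3-labelled and 29.8 ± 2.82 CPM in control libraries (SD, n = 3 each), with log2 differences of -0.06 and -0.06 from controls for Grg3Grg4-labelled and Grg3-labelled libraries. *Pmvk*, phosphomevalonate kinase, averaged 24.7 ± 4.34 CPM in Grg3Grg4-labelled, 23.5 ± 0.940 CPM in Grg3-labelled and 22.6 ± 0.967 CPM in control libraries, and *Pmvk*, *Insig2* and *Soat1* were the 3 genes of the list with means above controls in both Grg-labelled groups. *Fdps*, farnesyl pyrophosphate synthase, averaged 15.2 ± 1.06 CPM in Grg3Grg4-labelled, 13.0 ± 4.60 CPM in Grg3-labelled and 15.7 ± 0.541 CPM in control libraries, and its exons share 26.7% of their length with a second gene annotated on the same strand, so its counts are uncertain. The lowest edgeR adjusted p among these 4 genes against controls was 0.227, that of *Mvd* in Grg3-labelled libraries.

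Squalene and lanosterol are made by 3 enzymes. *Lss*, which closes the sterol ring system, stood at 102, 118 and 115 CPM in Grg3Grg4-labelled libraries, 59.8, 61.6 and 116 CPM in Grg3-labelled libraries and 105, 141 and 146 CPM in controls. Grg3-labelled replicates 1 and 2 were low, while Grg3-labelled replicate 3 and Grg3Grg4-labelled replicates 2 and 3 reached the range of the controls. The log2 difference of *Lss* was -0.22 ± 0.234 (SE; edgeR adjusted p = 0.64) in Grg3Grg4-labelled and -0.73 ± 0.235 (SE; edgeR adjusted p = 0.139) in Grg3-labelled libraries. *Sqle*, squalene epoxidase, stood at 113, 123 and 123 CPM in Grg3Grg4-labelled libraries, 82.5, 95.0 and 137 CPM in Grg3-labelled libraries and 124, 157 and 151 CPM in controls. Every Grg3Grg4-labelled library of *Sqle* lay below the lowest control, replicates 2 and 3 by a narrow margin, and Grg3-labelled replicate 3 lay among the controls. *Fdft1*, squalene synthase, averaged 187 ± 20.3 CPM in Grg3Grg4-labelled, 177 ± 42.3 CPM in Grg3-labelled and 186 ± 14.8 CPM in control libraries (SD, n = 3 each), and its log2 difference from controls was 0.01 in Grg3Grg4-labelled and -0.08 in Grg3-labelled libraries, the smallest difference of an enzyme in the first group. Its exons overlap those of *Ctsb* on the opposite strand over 18.3% of their length, and since the strand setting of the counting is not given, some reads of the pair cannot be told apart.

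The 8 enzymes from lanosterol to cholesterol include the single gene that passed the test, and all 8 had a log2 value below 0 in both Grg-labelled groups. *Tm7sf2* (chr19:6062821-6068373, GRCm38) stood at 24.6, 30.4 and 31.6 CPM in Grg3Grg4-labelled libraries, 24.4, 18.4 and 26.2 CPM in Grg3-labelled libraries and 38.8, 40.9 and 42.4 CPM in controls. Every Grg-labelled library was below every control, with Grg3-labelled replicate 2 lowest. It fell in Grg3-labelled libraries, with a log2 difference of -0.82 ± 0.138 (SE; edgeR adjusted p = 0.0257), and in the 6 Grg-labelled libraries together, at -0.66 ± 0.116 (SE; edgeR adjusted p = 0.0221). In Grg3Grg4-labelled libraries the difference was -0.49 ± 0.137 (SE; edgeR adjusted p = 0.0891). This was 1 gene of 26 in the Grg3 comparison, where 0.694% of all genes tested were called lower, and 1 of 26 in the 6-library comparison, where 1.19% were, so a single gene is too few to set the list apart. The exons of *Tm7sf2* share 12.1% of their length with *Vps51* on the same strand, and reads there may not have been counted.

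The call on *Tm7sf2* was lost in some fits, in which its log2 difference stayed close to that reported. In the Grg3 comparison its edgeR adjusted p was 0.0743 without Grg3-labelled replicate 1, 0.125 without control replicate 2 and 0.132 without control replicate 3. Its log2 difference in those fits was -0.86, -0.82 and -0.79, and 75, 44 and 32 of all genes were called in them, against 268 in the fit of all 9 libraries. Over all 18 alternatives, DESeq2 and limma voom included, the adjusted p ran from 1.1e-05 to 0.132. In the 6-library comparison it was 0.0627, 0.131 and 0.138 without control replicates 1, 2 and 3, and 0.0696 with embryo sex as a term, with log2 differences of -0.69, -0.66, -0.63 and -0.66, in a range of adjusted p of 5.7e-05 to 0.138 over 17 alternatives. The direction was the same in each of these.

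*Sc5d*, the desaturase that introduces the late double bond of the sterol ring, had the largest difference in Grg3Grg4-labelled libraries. *Sc5d* (chr9:42251595-42264256, GRCm38) stood at 41.7, 39.4 and 38.0 CPM in Grg3Grg4-labelled libraries, 31.5, 30.2 and 65.1 CPM in Grg3-labelled libraries and 71.1, 76.3 and 82.4 CPM in controls. Both Grg-labelled groups lay below the controls, and Grg3-labelled replicate 3 was closest to them. Its log2 difference was -0.95 ± 0.247 (SE; edgeR adjusted p = 0.0772) in Grg3Grg4-labelled libraries. In Grg3-labelled libraries it was -0.86 ± 0.247 (SE; edgeR adjusted p = 0.109), and in the 6 libraries together -0.90 ± 0.206 (SE; edgeR adjusted p = 0.0555). None of these passed the threshold, but in the Grg3Grg4 comparison *Sc5d* passed it without Grg3-labelled replicate 2 or 3, and *Tm7sf2* without Grg3-labelled replicate 2. The fits without Grg3-labelled replicates 2 and 3 called 825 and 365 of all genes, against 410 with all libraries.

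*Cyp51*, the lanosterol demethylase, stood at 116, 122 and 120.0 CPM in Grg3Grg4-labelled libraries, 89.4, 92.7 and 126 CPM in Grg3-labelled libraries and 138, 165 and 152 CPM in controls. *Nsdhl*, an X-linked sterol dehydrogenase that helps remove methyl groups, stood at 39.5, 41.3 and 39.2 CPM in Grg3Grg4-labelled libraries, 32.1, 29.4 and 38.8 CPM in Grg3-labelled libraries and 49.6, 45.4 and 45.2 CPM in controls. Neither gene overlapped between Grg-labelled libraries and controls, and in *Nsdhl* the Grg3Grg4-labelled libraries also lay above the Grg3-labelled ones. The log2 difference of *Cyp51* was -0.34 ± 0.129 (SE; edgeR adjusted p = 0.177) in Grg3Grg4-labelled and -0.56 ± 0.129 (SE; edgeR adjusted p = 0.0646) in Grg3-labelled libraries. For *Nsdhl* it was -0.22 ± 0.101 (SE; edgeR adjusted p = 0.249) in Grg3Grg4-labelled libraries. In Grg3-labelled libraries it was -0.48 ± 0.101 (SE; edgeR adjusted p = 0.0511), just above the threshold.

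*Msmo1*, the methylsterol oxidase of the same step as *Nsdhl*, stood at 100.4, 101 and 102 CPM in Grg3Grg4-labelled libraries, 75.4, 77.7 and 133 CPM in Grg3-labelled libraries and 118, 145 and 135 CPM in controls. The Grg3Grg4-labelled values were tightly grouped under the lowest control, whereas Grg3-labelled replicates 1 and 2 were lower still and replicate 3 lay among the controls. *Dhcr7*, the reductase of the last step, averaged 121 ± 6.57 CPM in Grg3Grg4-labelled, 112 ± 26.6 CPM in Grg3-labelled and 140.1 ± 11.3 CPM in control libraries (SD, n = 3 each), and its log2 differences were -0.21 and -0.33 from controls in Grg3Grg4-labelled and Grg3-labelled libraries. *Hsd17b7*, a ketosteroid reductase, and *Ebp*, the X-linked sterol isomerase, showed log2 differences of -0.10 and -0.15 in Grg3Grg4-labelled libraries and -0.26 and -0.11 in Grg3-labelled libraries, with edgeR adjusted p from 0.488 to 0.811.

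**Figure D2:**
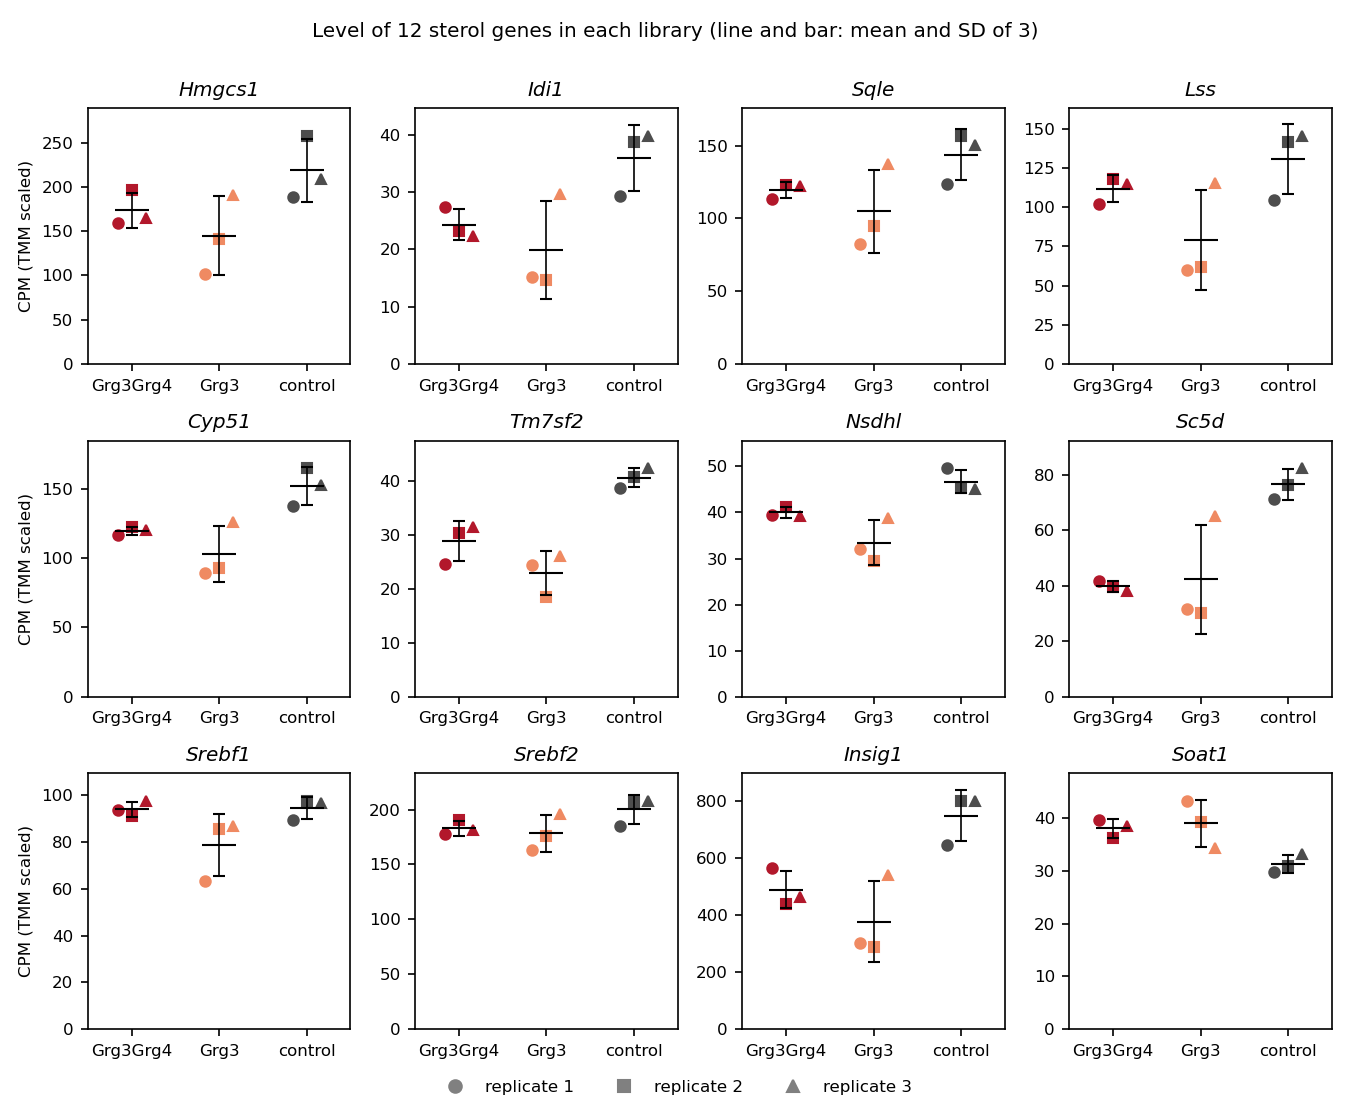
CPM (counts scaled to a common library total, TMM adjusted) of 12 of the genes in each library, by group, with replicates 1, 2 and 3 as circle, square and triangle and the mean and SD of each group as line and bar; every axis starts at 0. Grg3-labelled replicate 3 lies above replicates 1 and 2 in every panel but *Soat1*, where it lies below them, and in *Soat1* all Grg-labelled libraries lie above the controls.

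Of the 26 genes, 5 belong to the SREBP system. *Insig1* (chr5:28071363-28078662, GRCm38), an anchor of SCAP that is itself a target of SREBP, stood at 564, 440.0 and 464 CPM in Grg3Grg4-labelled libraries, 300.4, 288 and 540.2 CPM in Grg3-labelled libraries and 644, 801 and 800.3 CPM in controls. All 6 Grg-labelled libraries were below every control, with Grg3-labelled replicates 1 and 2 lowest. The log2 difference was -0.61 ± 0.228 (SE; edgeR adjusted p = 0.172) in Grg3Grg4-labelled and -0.99 ± 0.229 (SE; edgeR adjusted p = 0.0662) in Grg3-labelled libraries, the largest of the 26 genes in the Grg3 comparison, and neither passed the threshold. Scaled for exon length, *Insig1* was also the most abundant of the 26 genes in all 3 groups, at 158 ± 21.2 CPM per kb in Grg3Grg4-labelled, 122 ± 46.0 in Grg3-labelled and 242 ± 29.2 in control libraries (mean ± SD, n = 3 each), and *Hmgcs1*, the next in controls, was at 37.8 ± 4.30 CPM per kb in Grg3Grg4-labelled, 31.6 ± 9.69 in Grg3-labelled and 47.6 ± 7.73 in control libraries.

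*Srebf2*, which encodes the SREBP with the stronger hold on cholesterol synthesis, stood at 177, 191 and 181 CPM in Grg3Grg4-labelled, 163, 176 and 196 CPM in Grg3-labelled and 185, 207 and 208 CPM in control libraries, with all groups overlapping. *Srebf1*, which encodes the SREBP with the stronger hold on fatty acid synthesis, stood at 93.7, 90.9 and 97.3 CPM in Grg3Grg4-labelled libraries, 63.5, 85.7 and 86.6 CPM in Grg3-labelled libraries and 89.2, 97.6 and 96.6 CPM in controls. Its Grg3-labelled libraries all lay below the other 2 groups, replicate 1 by the most, while the Grg3Grg4-labelled libraries lay among the controls. The log2 difference of *Srebf1* was -0.01 ± 0.114 (SE; edgeR adjusted p = 0.98) in Grg3Grg4-labelled and -0.27 ± 0.114 (SE; edgeR adjusted p = 0.245) in Grg3-labelled libraries. For *Scap*, the escort of SREBP, it was -0.13 and -0.24, with edgeR adjusted p of 0.456 and 0.19, and no Grg-labelled library reached the controls. *Insig2*, the related anchor of SCAP that depends less on SREBP, averaged 16.5 ± 0.459 CPM in Grg3Grg4-labelled, 17.8 ± 2.34 CPM in Grg3-labelled and 16.3 ± 1.23 CPM in control libraries, with all 3 groups overlapping.

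Transport and storage are represented by *Stard4* and *Soat1*. *Soat1* (chr1:156424525-156474331, GRCm38) encodes an enzyme of the endoplasmic reticulum that esterifies cholesterol for storage. The gene stood at 39.7, 36.1 and 38.4 CPM in Grg3Grg4-labelled libraries, 43.3, 39.3 and 34.4 CPM in Grg3-labelled libraries and 29.7, 31.0 and 33.2 CPM in controls. *Soat1* was the only one of the 26 genes with every Grg-labelled library above every control. Its log2 difference was 0.28 ± 0.0950 (SE; edgeR adjusted p = 0.137) in Grg3Grg4-labelled and 0.32 ± 0.0950 (SE; edgeR adjusted p = 0.12) in Grg3-labelled libraries, and 0.30 ± 0.0832 (SE; edgeR adjusted p = 0.0925) in the 6 libraries together. *Stard4*, a soluble carrier of cholesterol between membranes, averaged 55.2 ± 1.74 CPM in Grg3Grg4-labelled, 49.5 ± 6.49 CPM in Grg3-labelled and 59.9 ± 6.25 CPM in control libraries (SD, n = 3 each), with log2 differences of -0.12 and -0.27 from controls in the Grg3Grg4-labelled and Grg3-labelled libraries. Per length, *Soat1* was the least abundant gene of the list in controls, at 3.89 ± 0.184 CPM per kb in Grg3Grg4-labelled, 3.98 ± 0.456 in Grg3-labelled and 3.20 ± 0.181 in control libraries.

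**Figure D3:**
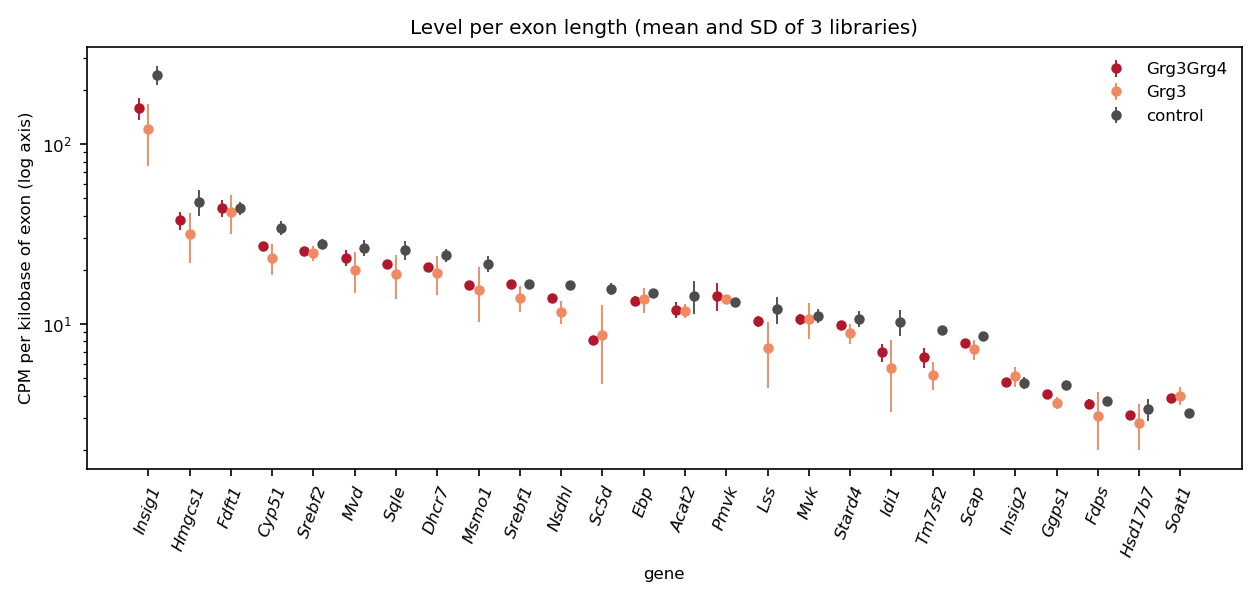
Mean and SD of 3 libraries of the level per exon length (CPM per kilobase, log axis) for the 26 genes, ordered by the control mean, for Grg3Grg4-labelled (dark red), Grg3-labelled (orange) and control (grey) libraries. *Insig1* stands highest in all 3 groups, and Grg3-labelled libraries have the widest bars for most genes.

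Read over the whole list, the Grg3Grg4 comparison called 0 of 26 genes by edgeR, where 0.897% of all genes were called lower and 1.24% higher. At an unadjusted p under 0.05, 5 genes were lower and 1 higher, against 8.92% and 11.3% of all genes. DESeq2 called 3 of the 26 (*Insig1*, *Sc5d* and *Tm7sf2*) and limma voom 2 (*Sc5d* and *Tm7sf2*), where DESeq2 called 1454, limma voom 1033 and edgeR 410 of all genes. In 12 of 26 genes every Grg3Grg4-labelled library lay below every control, against 14.2% of all genes, and in 1 gene every library lay above, against 14.9%. All 3 Grg3Grg4-labelled libraries were male, so sex and group cannot be fully told apart there.

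The Grg3 comparison called 1 gene, *Tm7sf2*, and 15 genes were lower at an unadjusted p under 0.05, against 9.5% of all genes, and 1 higher, against 9.61%. No gene was called higher, where 0.704% of all genes were. In 8 of 26 genes every Grg3-labelled library lay below every control, against 12% of all genes, and *Soat1* alone lay above, against 12.6%. Without Grg3-labelled replicate 3 the test called 9 of the 26 genes lower (*Cyp51*, *Idi1*, *Insig1*, *Lss*, *Msmo1*, *Nsdhl*, *Sc5d*, *Sqle* and *Tm7sf2*), in a fit that called 247 of all genes. Without Grg3-labelled replicate 1, control replicate 2 or control replicate 3 it called none of the 26, in fits that called 75, 44 and 32 of all genes, against 268 with all libraries. DESeq2 called 9 of the 26 and 4% of all genes, where edgeR called 1.4%. In the 6-library comparison 7 genes lay below every control in all 6 libraries, against 5.75% of all genes, and *Soat1* lay above in all 6, against 4.91%. No gene was called higher, where 0.882% of all genes were, and 12 were lower at an unadjusted p under 0.05, against 10.1%.

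Set against Grg3-labelled libraries, Grg3Grg4-labelled libraries showed a median log2 difference of 0.16, against -0.00272 over all genes, and 5 of 26 genes were below 0. No gene was called by edgeR, DESeq2 or limma voom, where edgeR called 0.0574% of all genes lower and 0.13% higher. At an unadjusted p under 0.05, 3 genes were higher and 0 lower, against 9.62% and 7.7% of all genes. *Ggps1*, *Nsdhl* and *Srebf1* were the 3 genes in which every Grg3Grg4-labelled library lay above every Grg3-labelled one, against 11.8% of all genes, and no gene showed the opposite, against 9.3%. For 19 of the 26 genes the group means ran in the order Grg3-labelled, Grg3Grg4-labelled and control from low to high. The share of all genes with this order was not counted. *Sc5d*, *Mvk* and *Ebp* had Grg3Grg4-labelled as the lowest mean and control as the highest.

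Over the 26 genes, the 3 Grg3Grg4-labelled libraries lay next to each other, and the 3 Grg3-labelled libraries did not. The mean deviation of the 26 genes from their own means was -0.04, 0.01 and -0.0032 on the log2 scale in the Grg3Grg4-labelled libraries, -0.34, -0.33 and 0.11 in the Grg3-labelled libraries and 0.08, 0.28 and 0.23 in the controls. Grg3-labelled replicates 1 and 2 were thus the lowest libraries, whereas Grg3-labelled replicate 3 lay above all 3 Grg3Grg4-labelled libraries and above control replicate 1. Replicate 3 was the highest of the 3 Grg3-labelled libraries in 22 of 26 genes, against 31.1% of all genes tested. The spread was widest in the Grg3-labelled group for 24 of 26 genes, against 45.2% of all genes. The median SD on the log2 scale was 0.0734 in Grg3Grg4-labelled, 0.301 in Grg3-labelled and 0.116 in control libraries for the 26 genes, and for all genes it was 0.177 in Grg3Grg4-labelled, 0.222 in Grg3-labelled and 0.155 in control libraries.

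**Figure D4:**
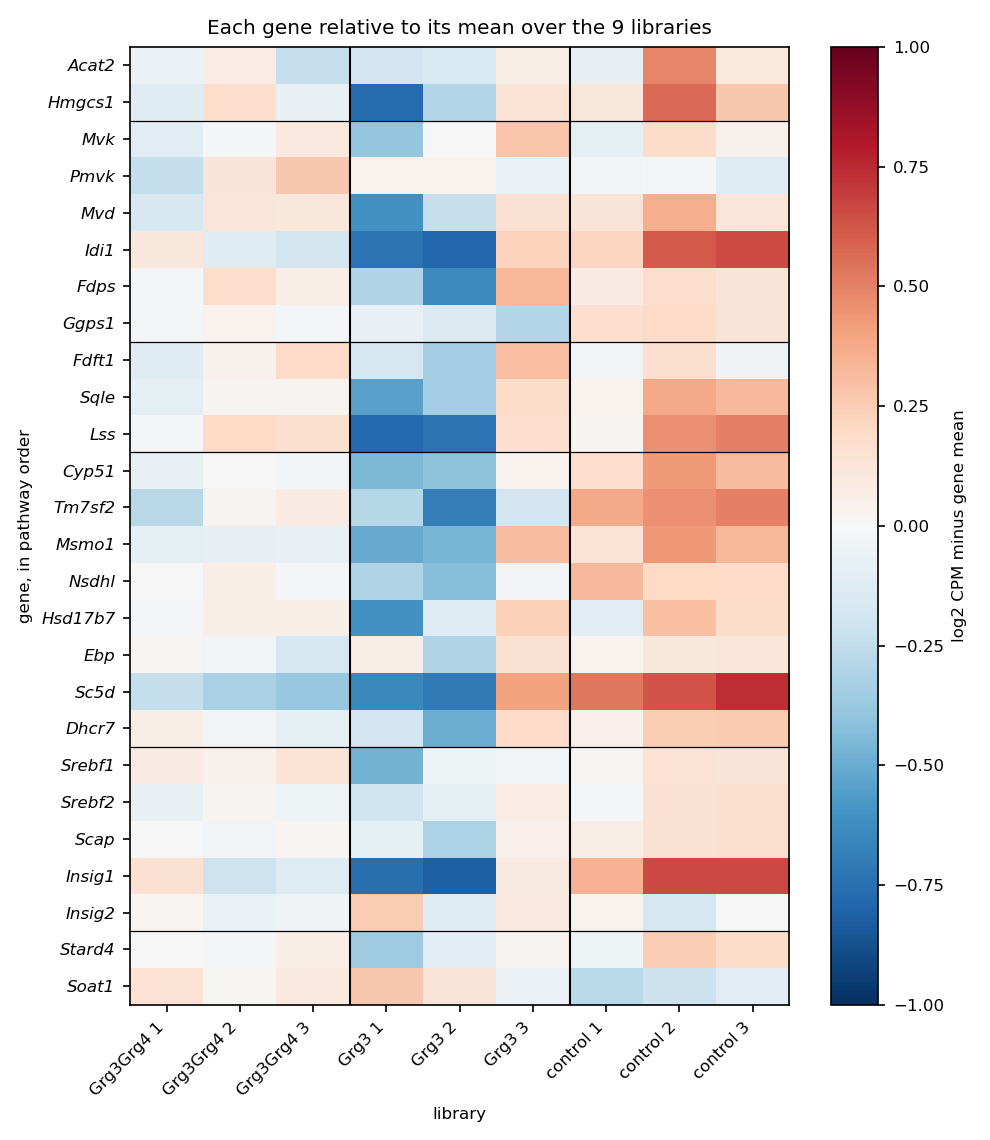
Log2 CPM of each of the 26 genes minus its mean over the 9 libraries, from -1 (blue) to 1 (red), with genes in pathway order, horizontal lines between roles and vertical lines between groups. Grg3-labelled replicates 1 and 2 are mostly blue, Grg3-labelled replicate 3 is mostly pale red, and control replicates 2 and 3 are mostly red.

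Against the range of the 3 controls, 19, 13 and 17 of the 26 genes lay below it in Grg3Grg4-labelled replicates 1, 2 and 3, and 22, 22 and 8 in Grg3-labelled replicates 1, 2 and 3. Of all genes tested, 30.7% to 32.3% lay below it in each of these 6 libraries. Control replicate 1 was the lowest control in 20 of 26 genes, against 35.4% of all genes, and it was the only male control. Within males, the Grg3Grg4-labelled mean was below the single control in 17 genes and the Grg3-labelled library in 22. Within females, the mean of the 2 Grg3-labelled libraries was below the mean of the 2 controls in 22 genes. The shares of all genes for these 3 counts were 46.8%, 49.2% and 47.1%. With 1 to 3 libraries in each of these sets, no test was made of them.

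Summed over the 19 enzymes, the level was 1217, 1321 and 1289 CPM in Grg3Grg4-labelled libraries, 958, 978 and 1453 CPM in Grg3-labelled libraries and 1378, 1665 and 1549 CPM in controls. Grg3-labelled replicate 3 alone lay within the range of the controls. Summed acinar markers were 167900, 153800 and 176700 CPM in Grg3Grg4-labelled libraries and 188700, 130200 and 243000 CPM in Grg3-labelled libraries, against 238000, 267900 and 248600 CPM in controls. Grg3-labelled replicate 3 was again the one Grg-labelled library within the controls' range, and none of the 10 acinar markers was at 0 throughout a group. The part of acinar content in the sterol gene levels was not tested. Summed markers of the adrenal cortex, another tissue rich in sterol synthesis, stayed between 3.37 and 9.33 CPM in all 9 libraries, and 1 of its 5 markers was at 0 throughout each group, *Cyp21a1* in Grg3Grg4-labelled libraries and *Cyp11b1* in Grg3-labelled and control libraries. Of the Grg3-labelled libraries, replicate 1 had the most liver marker counts and replicate 2 the fewest, and both were low for the sterol enzymes. Summed beta cell markers ranged from 1199 to 2624 CPM in Grg3Grg4-labelled, from 2277 to 4207 CPM in Grg3-labelled and from 4279 to 5014 CPM in control libraries, and smooth and striated muscle markers from 227 to 1314 CPM in Grg3Grg4-labelled, from 321 to 971 CPM in Grg3-labelled and from 127 to 185 CPM in control libraries. The part of adrenal, liver, beta cell and muscle content in these levels was not tested.

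**Figure D5:**
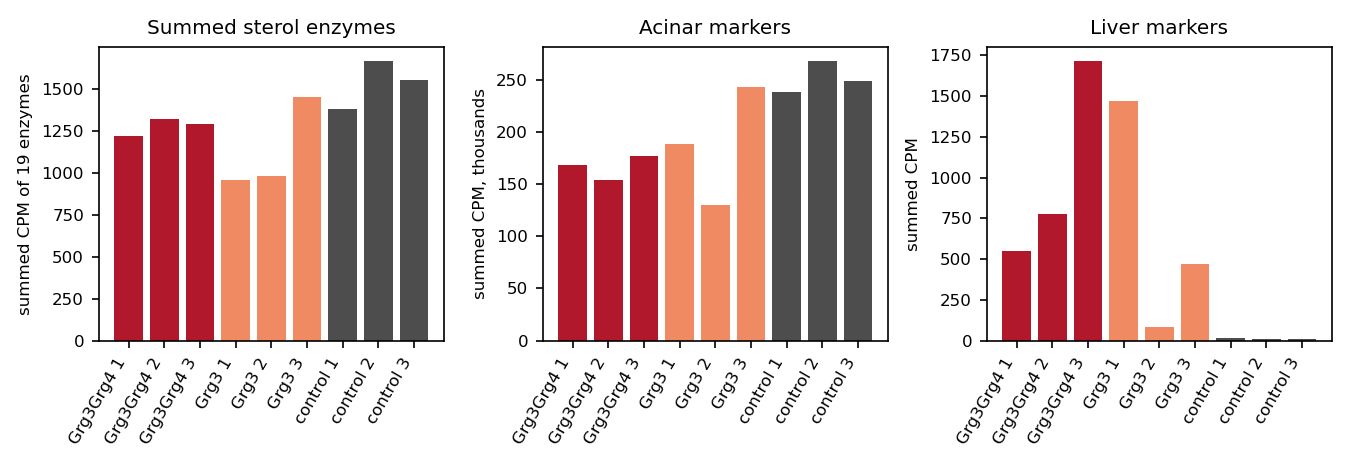
Summed CPM of the 19 sterol enzymes, of 10 acinar markers (axis as labelled, in scaled CPM) and of 11 liver markers, 1 bar per library, grouped as Grg3Grg4-labelled (dark red), Grg3-labelled (orange) and control (grey). Grg3-labelled replicate 3 is at 1453 CPM for the enzymes and 243000 CPM for the acinar markers, the highest Grg-labelled library for both, and liver markers are near 0 in the controls only.

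Other genes of sterol and lipid handling were taken from lists of the same kind. Of 17 genes of fatty acid synthesis and other SREBP targets, 2 fell in Grg3-labelled libraries and 0 in Grg3Grg4-labelled libraries, and 2 fell in the 6 libraries together, against the 0.694%, 0.897% and 1.19% of all genes called lower in the Grg3, Grg3Grg4 and 6-library comparisons. The median log2 difference of the list was -0.05 in Grg3Grg4-labelled and -0.25 in Grg3-labelled libraries. *Fasn*, fatty acid synthase, stood at 305, 316 and 304 CPM in Grg3Grg4-labelled libraries, 163, 191 and 221 CPM in Grg3-labelled libraries and 248, 375 and 396 CPM in controls. The Grg3-labelled libraries lay below all others, and the Grg3Grg4-labelled libraries lay within the range of the controls. *Fasn* fell in Grg3-labelled libraries, with a log2 difference of -0.83 ± 0.171 (SE; edgeR adjusted p = 0.0493), and its value in Grg3Grg4-labelled libraries was -0.14 ± 0.170 (SE; edgeR adjusted p = 0.692). The difference between the 2 Grg-labelled groups was 0.69 ± 0.171 (SE; edgeR adjusted p = 0.116). With embryo sex as a term the direction in Grg3Grg4-labelled libraries against controls turned, to 0.21, and the difference between the 2 Grg-labelled groups was 1.02 (edgeR adjusted p = 0.461 and 0.0561). The call held in 10 of 18 alternatives, and in 2 of the 9 that left out 1 library (without Grg3Grg4-labelled replicate 2 and without control replicate 1). Over all 18, DESeq2 and limma voom included, the adjusted p of *Fasn* ran from 8.72e-05 to 0.209.

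*Fads2*, a fatty acid desaturase, stood at 100.3, 103 and 113 CPM in Grg3Grg4-labelled libraries, 93.1, 92.2 and 98.4 CPM in Grg3-labelled libraries and 123, 127 and 121 CPM in controls. *Fads1*, its neighbour and partner desaturase, stood at 98.4, 102 and 99.7 CPM in Grg3Grg4-labelled libraries, 101, 104 and 96.0 CPM in Grg3-labelled libraries and 123, 139 and 115 CPM in controls. In both genes every Grg-labelled library lay below every control. *Fads2* fell in Grg3-labelled libraries, with a log2 difference of -0.39 ± 0.0742 (SE; edgeR adjusted p = 0.0391), and in the 6 libraries together, with -0.31 ± 0.0635 (SE; edgeR adjusted p = 0.0426). *Fads1* fell in the 6 libraries together, with -0.33 ± 0.0711 (SE; edgeR adjusted p = 0.0492). The call of *Fads2* in the Grg3 comparison was kept in 6 of 18 alternatives and in 0 of the 9 fits that left out 1 library, with edgeR adjusted p up to 0.169, while its log2 difference in those 9 stayed between -0.41 and -0.36. In the 6-library comparison the call of *Fads2* was kept in 3 of these 9 fits, with edgeR adjusted p up to 0.215 and a log2 difference between -0.33 and -0.29. That of *Fads1* was kept in 1 of the 9, with edgeR adjusted p up to 0.239 and a log2 difference between -0.38 and -0.25.

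No gene was called by edgeR in the other 3 lists, which hold 18 genes of sterol uptake, efflux and turnover, 9 of SREBP cleavage and sterol-regulated degradation and 11 of the isoprenoid branch. Their median log2 differences in Grg3Grg4-labelled libraries against controls were -0.16, -0.17 and 0.05, and in Grg3-labelled libraries -0.12, -0.11 and -0.03. At an unadjusted p under 0.05, 2 uptake genes were lower and 1 higher in Grg3Grg4-labelled libraries, and 1 was lower and 2 higher in Grg3-labelled libraries. In the cleavage list 3 were lower and 0 higher in Grg3Grg4-labelled libraries, and 2 lower and 0 higher in Grg3-labelled libraries. In the isoprenoid list 0 were lower and 2 higher in Grg3Grg4-labelled libraries, and 0 passed in either direction in Grg3-labelled libraries. Of all genes tested, 8.92% were lower and 11.3% higher at that threshold in Grg3Grg4-labelled libraries, and 9.5% and 9.61% in Grg3-labelled libraries. The genes of smallest p in the uptake list were *Npc2*, a carrier of cholesterol out of lysosomes, at 126 ± 5.01 CPM in Grg3Grg4-labelled, 153 ± 10.4 CPM in Grg3-labelled and 126 ± 5.51 CPM in control libraries (SD, n = 3 each), and *Vldlr*, a lipoprotein receptor, at 51.6 ± 4.64 CPM in Grg3Grg4-labelled, 49.0 ± 0.839 CPM in Grg3-labelled and 42.7 ± 1.62 CPM in control libraries. In the cleavage list they were *Fbxw7*, which marks nuclear SREBP for degradation, at 15.04 ± 0.511 CPM in Grg3Grg4-labelled, 17.2 ± 0.403 CPM in Grg3-labelled and 18.0 ± 1.06 CPM in control libraries, and *Rnf145*, a sterol-responsive ubiquitin ligase, at 56.4 ± 1.86 CPM in Grg3Grg4-labelled, 60.6 ± 0.775 CPM in Grg3-labelled and 65.2 ± 4.47 CPM in control libraries. In the isoprenoid list they were *Rabggta*, a subunit of the Rab prenylating enzyme, at 19.7 ± 1.95 CPM in Grg3Grg4-labelled, 14.9 ± 1.86 CPM in Grg3-labelled and 15.2 ± 0.314 CPM in control libraries, and *Coq2*, an enzyme of coenzyme Q synthesis, at 28.9 ± 1.11 CPM in Grg3Grg4-labelled, 25.4 ± 2.66 CPM in Grg3-labelled and 25.0 ± 1.30 CPM in control libraries.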

How the data were processed

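Bulk RNA-seq of whole pancreas gave 9 libraries, 3 per group, and the authors deposited 1 table per library of raw counts per gene symbol, with no normalization. Per the submitters' processing notes, HISAT2, HTSeq, DESeq2, Trim Galore, FastQC and bedtools were used, with builds GRCm38 and mm10. What each did, its version, the annotation and the strandedness of counting: not given in the sources used here. Gene counts summed to 46817453 to 62744499 per library, and 5 rows that name no gene, holding 28.5% to 33.2% of the reads, stayed out.

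In R 4.3.3, edgeR 4.0.16 tested each gene by quasi-likelihood F test, 2-sided, after TMM scaling and a filter (filterByExpr, minimum count 10, minimum total 15) that kept 19166 genes. All 9 libraries entered 1 fit of group means, and p-values were adjusted by Benjamini-Hochberg over all 19166 genes, with 0.05 as the threshold. The 6-library comparison sets the mean of the Grg3Grg4-labelled and Grg3-labelled groups against controls. Each SE of a log2 difference was derived from the test, as the size of the difference divided by the square root of its F value. CPM are counts scaled to a common total of 1e+06 after TMM; CPM per kb divides them by the union of exons in GENCODE M21 on GRCm38, which may differ from the authors' annotation. The scripts were tested on simulated data. DESeq2 1.42.0 and limma 3.58.1 gave alternatives.

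All 26 listed genes are reported, with *Tle3*, *Tle4* and, from 4 further lists, each gene past the threshold in any comparison or otherwise the 2 genes of smallest p. These genes and lists were chosen with earlier results of these data known. The labels do not say whether replicates are separate embryos. The Grg3-labelled and control groups each hold both sexes and so more than 1 embryo. Elsewhere the spread that p-values measure may be technical. No library repeated another of its group (chi-square per degree of freedom between their counts 18.5 to 213). Promoter windows are RefSeq's for GRCm38.p6; the 4 genes not matched there are *Fdps*, *Fdft1*, *Sqle* and *Stard4*.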

Additional observations from a re-analysis of the deposited data

How the results depend on the processing

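Alternatives were other size factors, other filters, a sex term, other tools, fewer libraries and a block. In Grg3Grg4-labelled libraries against controls, 0 of the 26 genes were called in the fit reported, where 2.14% of all genes were. The number was 2 without the filter (2.79% of all genes) and 4 with only the 6 libraries compared (4.07%). It was 2 with limma voom (5.39%), 3 with DESeq2 (4.4%), and 0 to 2 when 1 library was left out (0.251% to 4.18%). In Grg3-labelled libraries against controls, 1 of the 26 was called in the fit reported, where 1.4% of all genes were. The number was 2 with acinar markers left out (1.43% of all genes), 6 without the filter (1.76%) and 2 with at least 1 CPM in 3 libraries (2%). It was 4 with limma voom (2.2%), 9 with DESeq2 (4%), and 0 to 9 when 1 library was left out (0.161% to 1.66%). In the 6 libraries together, 1 of the 26 was called in the fit reported, where 2.07% of all genes were. The number was 5 without the filter (2.24% of all genes), 0 with the sex term (0.736%), 6 with limma voom (5.27%) and 7 with DESeq2 (4.44%). Of the 7 called by DESeq2, 6 were lower and 1, *Soat1*, was higher. The number was 0 to 9 when 1 library was left out (0.312% to 3.04%). The 9 came without Grg3-labelled replicate 3 (1.79%) and 0 without any 1 control (0.312% to 0.871%). In the comparison of Grg3Grg4-labelled with Grg3-labelled libraries 0 of the 26 were called under each alternative, where 0.0209% to 2.66% of all genes were. The median difference of the 26 genes was -0.038 with the sex term in Grg3Grg4-labelled libraries, -0.51 to -0.24 with 1 library left out in Grg3-labelled libraries, and 0.063 to 0.35 with 1 library left out between the Grg-labelled groups. The cause of these shifts was not tested. The 6-library comparison already uses all 9 libraries, so a fit of only the libraries compared was not separate.

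Correlations of the deviations of same-numbered libraries ran from -0.0858 to 0.094, and those of differently numbered libraries from -0.148 to 0.165. With 3 libraries per group these values cannot settle whether the numbers pair the samples. With the replicate number as a block, 0, 1, 0 and 1 of the 26 genes were called in the Grg3Grg4, Grg3, Grg3Grg4 against Grg3 and 6-library comparisons, and 254, 167, 11 and 292 of all genes. Of the genes called in other lists, *Fasn* was called with the block, and *Fads2* (edgeR adjusted p = 0.0711 in the Grg3 comparison and 0.0725 in the 6-library comparison) and *Fads1* (0.0649 in the 6-library comparison) were not. Counts over all genes, in the same 4 comparisons, were 410, 268, 36 and 397 in the fit reported. Across the alternatives they ran from 30 to 1454, 32 to 1321, 4 to 880 and 62 to 1468, with DESeq2 highest in each. DESeq2 tested 33049 genes and the fit without the filter 33324, against 19166 in the fit reported.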
